A study of Mus musculus with 65 samples.

Results

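The TAM receptors Axl, Mertk and Tyro3 and their bridging ligands Gas6 and Pros1 were followed across a mouse retina RNA-seq series. The genes were chosen by name, each symbol matched 1 Ensembl identifier, and the family therefore held 5 of the 50686 genes counted. All 5 passed the filter on low counts in both models described below. The series comprised 65 adult C57BL/6J mice in 16 groups, with 1 library of whole-retina RNA from each mouse. The paper names poly(A) selection or removal of ribosomal RNA for its libraries without saying which was used. It asked what the retina does when its microglia are removed with PLX5622, an inhibitor of the receptor CSF1R on which microglia depend for survival, and when they return after the drug is withdrawn.

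CD mice received control diet (n = 5). They are numbered 1 to 4, apart from a mouse labelled 2M. The labels of the mice taken 2 months after return to control diet also carry 2M, and its meaning for the CD mouse is not stated. DEP mice received PLX5622 in the diet for 2, 5, 7, 10, 14 or 21 days, with 3 mice at DEP5 and 4 mice at every other time. REPOP mice were returned to control diet after depletion and were taken 3, 5, 7, 10, 14 or 21 days or 2 months later (REPOP60), with 6 mice at REPOP7 and 4 mice at every other time. LPSCD mice received control diet and systemic lipopolysaccharide (LPS), a bacterial trigger of innate immune signalling (n = 3). LPSREPOP mice are listed by the study as LPS-challenged repopulated retina, whereas their labels read PLX5622 plus LPS (n = 4). Their microglial marker genes summed to between 85.2 and 135 CPM (read counts scaled to the size of the library), against 22.8 to 32.5 CPM in the depleted mice defined below, so microglial transcripts were present in these retinas. The interval between LPS and tissue collection was not given in the sources used here.

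TYRO3, AXL and MERTK are receptor tyrosine kinases. GAS6 and protein S, the product of Pros1, carry vitamin K-dependent carboxylated residues that bind phosphatidylserine on dying cells and shed membranes, and so bridge that surface to the receptors. Signalling through the family promotes engulfment and dampens innate immune responses, MERTK in the retinal pigment epithelium (RPE) is known for its part in the daily uptake of photoreceptor outer segments, and AXL and MERTK are also made by microglia and other macrophages.

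The libraries held 5106429 to 8760443 counted reads with a median of 7944665, so that 3 reads in a library correspond to between 0.342 and 0.587 CPM. Every title ended in RE (39 mice) or re (26 mice), and this suffix, whose meaning is not stated, was the main separation between libraries. The first principal component held 55.8% of the variance over 12346 genes and placed every re mouse above every RE mouse. DEP5 was entirely RE, REPOP60 and both LPS groups were entirely re, and the suffix was therefore a term in each model. Across the suffix, 46.4% of the 27869 genes tested in the time course differed at a false discovery rate (FDR) below 0.05, the rule for a call used throughout. The depletion itself was evident, as 18 of 20 microglial marker genes were lower in sustained depletion (the mean of DEP5, DEP7, DEP10, DEP14 and DEP21, n = 19) than in CD, with a median log2 fold change of -4.63 against -0.01 over all genes. Cx3cr1, the fractalkine receptor of microglia, averaged 3.93 CPM in CD and was at most 0.121 CPM in any depleted mouse.

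In CD retina, Gas6 was by far the most abundant member per transcript length, at 69.7 ± 8.26 FPKM (fragments scaled to transcript length and library size; mean ± SD, n = 5). Tyro3 followed at 6.82 ± 1.27 FPKM and Axl at 5.93 ± 1.65 FPKM, and their ranges, 5.63 to 8.45 and 3.29 to 7.75 FPKM, overlapped. Pros1 stood at 2.47 ± 0.170 FPKM and Mertk at 1.96 ± 0.254 FPKM. The lowest Pros1 value, 2.29 FPKM, lay just above the highest Mertk value, 2.28 FPKM, but the order of these genes was not stable to the measure. When CPM was instead divided by exon length, Mertk ranged from 2.09 to 3.01 and Pros1 from 1.71 to 2.45 CPM per kilobase. The genes lie on GRCm38 (mm10) at chr7:25757273-25788705 for Axl (minus strand), chr2:128698956-128802894 for Mertk (plus), chr2:119797733-119818104 for Tyro3 (plus), chr8:13465374-13494490 for Gas6 (minus) and chr16:62854307-62929346 for Pros1 (plus). Gas6 shares 34 exonic bases with the oppositely transcribed Tmem255b, which had at most 130 counts in any mouse, and whether counting used strand is not stated. Genes annotated within the Mertk locus share no exonic base with it and had at most 2 counts.

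**Figure D1:**
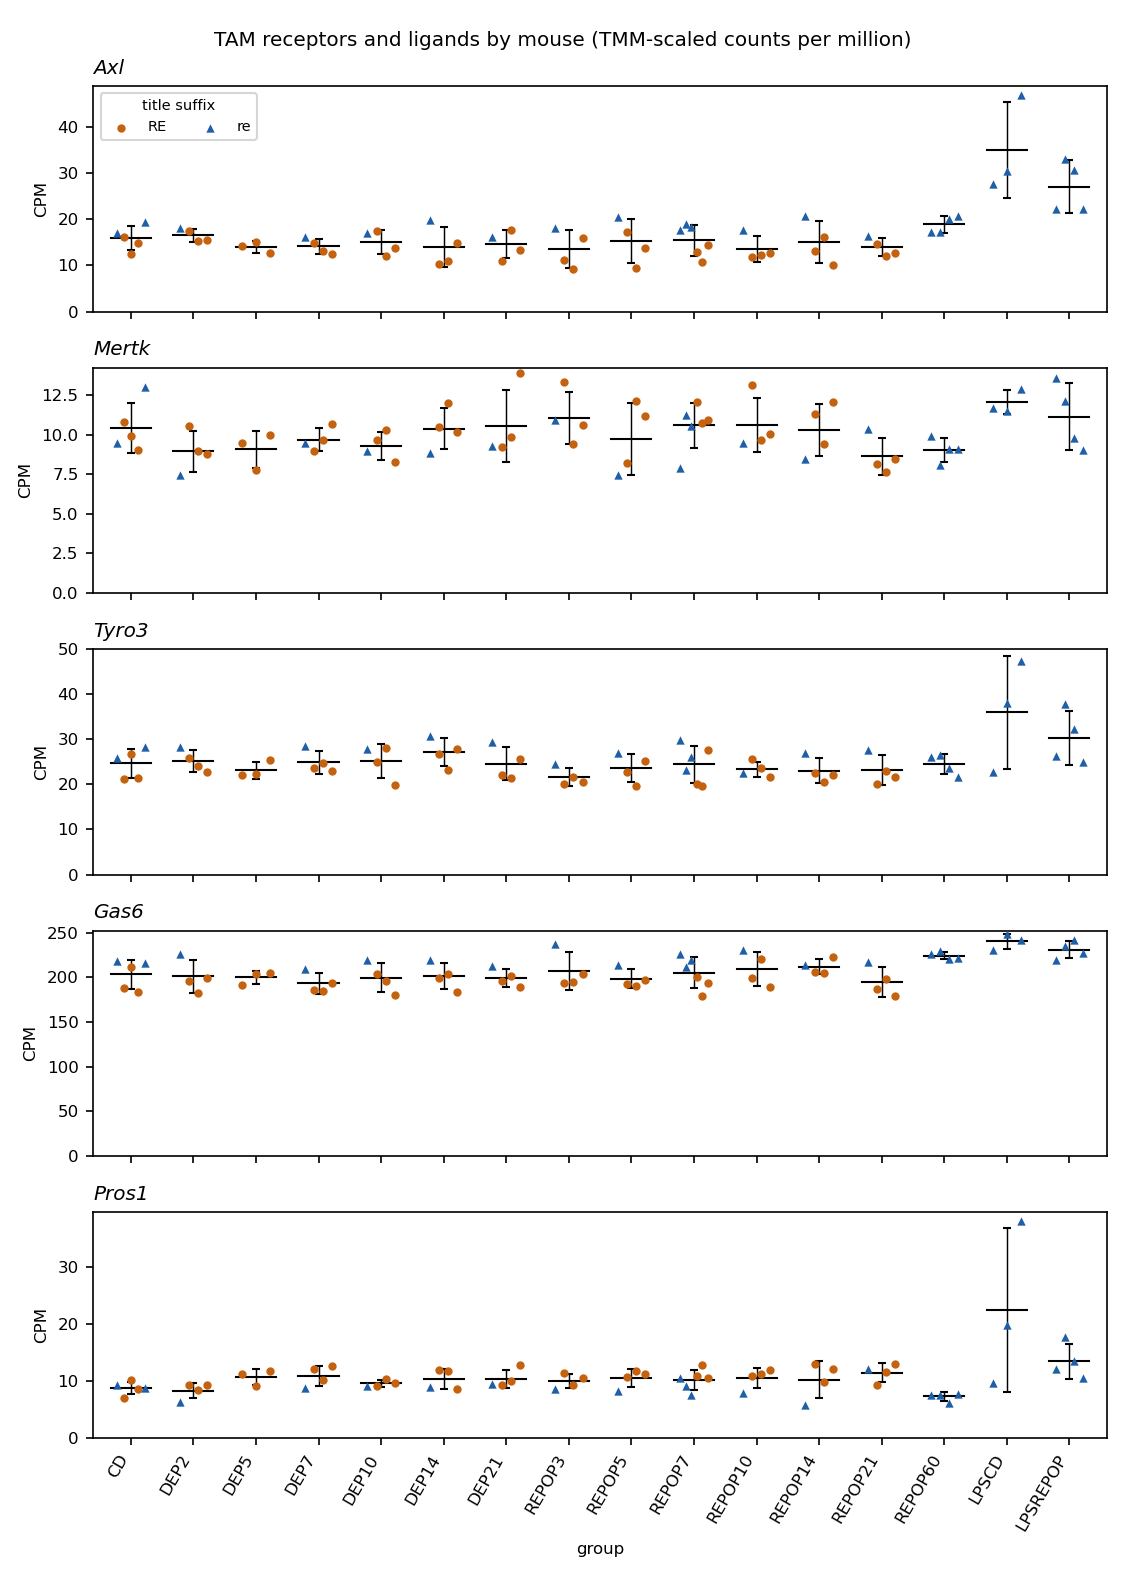
CPM scaled by the trimmed mean of M values (TMM) for each member (vertical axis, from 0) in each mouse of the 16 groups (horizontal axis); orange circles are RE mice, blue triangles re mice, horizontal bars group means and whiskers SD. Means of the 14 groups without LPS run from 13.6 to 18.9 CPM for Axl and from 7.21 to 11.4 CPM for Pros1, re mice tend to lie above RE mice for Axl, and the highest Axl and Pros1 values, 47.0 and 38.0 CPM, belong to the same LPSCD mouse.

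Does the retina lose TAM receptor transcripts when it loses its microglia? None of the 5 members was called in sustained depletion against CD, where 0.201% of 27869 genes were called. In a whole-retina library, fewer cells of a type and less RNA per cell cannot be told apart. Axl, the receptor that binds GAS6 most tightly, measured 17.0, 16.3, 12.5, 14.8 and 19.4 CPM in the CD mice. In sustained depletion it ranged from 10.3 to 19.8 with a median of 14.2 CPM, and 13 of 19 depleted mice fell within the CD range. Its log2 fold change was -0.07 ± 0.11 (SE; FDR = 0.990), with a 95% interval from a decrease of 17.7% to an increase of 10.9%.

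Mertk, the receptor most closely tied to engulfment, measured 9.47, 10.8, 9.90, 9.05 and 13.04 CPM in CD. Depleted mice ranged from 7.77 to 13.9 with a median of 9.65 CPM, and again 13 of 19 lay within the CD range. The log2 fold change was -0.12 ± 0.10 (FDR = 0.924), and the interval ran from -20.0% to 6.25%. The other 6 lay outside that range, and the counts behind these values were 64 to 116 per mouse. Tyro3, the member of the family best known from neurons, measured 25.9, 21.1, 26.9, 21.5 and 28.2 CPM in CD and 19.8 to 30.9 CPM in sustained depletion, where 15 of 19 mice lay within the CD range. Its log2 fold change was 0.07 ± 0.07 (FDR = 0.945; interval -5.12% to 15.8%).

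No ligand was called either. Gas6 measured 218, 188, 211, 183 and 216 CPM in CD and 179.6 to 219 CPM in sustained depletion, with 16 of 19 mice inside the CD range. Its log2 fold change of 0.01 ± 0.04 (FDR = 1) had the narrowest interval of the family, -4.92% to 6.11%, on 1457 to 1755 counts per depleted mouse. Pros1, whose product also acts as an anticoagulant in plasma, measured 9.21, 7.001, 10.02, 8.58 and 8.78 CPM in CD and 8.56 to 12.7 CPM in sustained depletion. Here 10 of 19 depleted mice were inside the CD range, and because the lowest depleted mouse was also inside it, the other 9 all exceeded the highest CD mouse. The difference nevertheless did not pass the test, at a log2 fold change of 0.18 ± 0.11 (FDR = 0.878; interval -1.95% to 31.5%). Within RE mice Pros1 averaged 10.6 ± 1.41 CPM in sustained depletion (n = 15) against 8.54 ± 1.51 in CD (n = 3), and the log2 difference was 0.31. Within re mice the means were 9.03 ± 0.321 (n = 4) and 8.996 ± 0.305 CPM (n = 2), a log2 difference of 0.01. For the receptors and Gas6 the log2 differences within RE and within re mice were -0.10 and -0.07 for Axl, 0.01 and -0.30 for Mertk, 0.05 and 0.11 for Tyro3 and 0.00 and -0.01 for Gas6, none of them called.

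**Figure D2:**
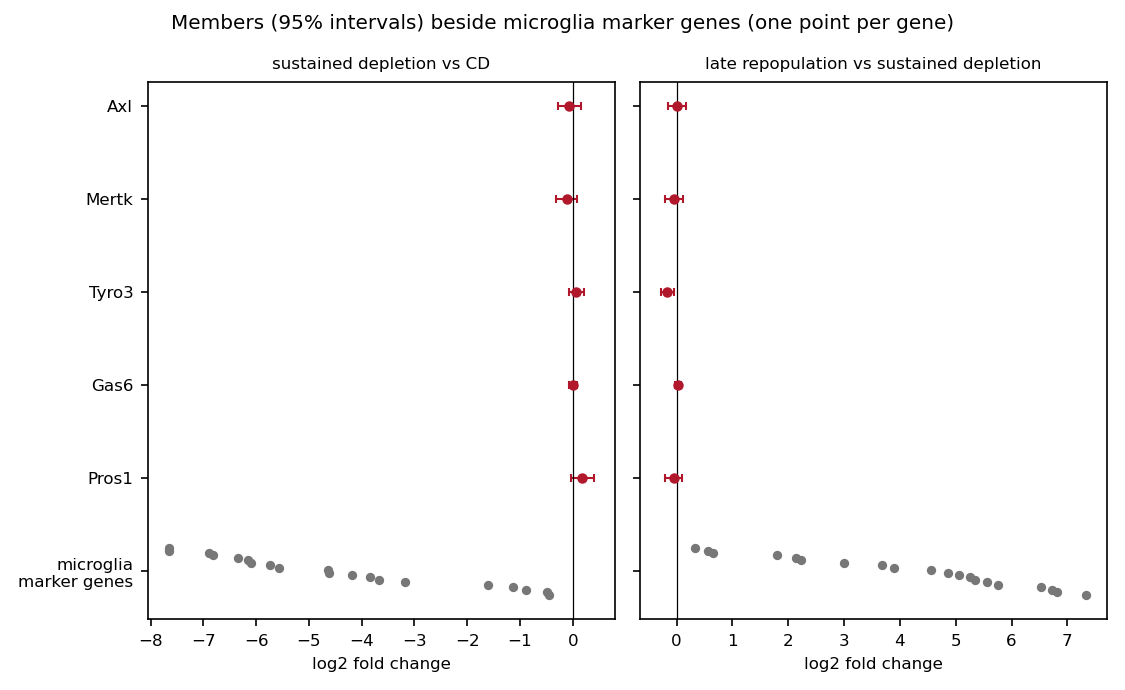
Log2 fold change (horizontal axis) of each member with its 95% interval (red) in sustained depletion against CD (left) and in late repopulation against sustained depletion (right), with 1 grey point per microglial marker gene in the lowest line. No member lies further than 0.18 from 0 in either contrast, while marker genes reach beyond 6 on the log2 scale, downwards on the left and upwards on the right.

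Nor did any single time point move a member past the threshold. In the 13 comparisons of a depletion or repopulation group with CD, which share the CD mice, no member was called. The share of all genes called was 0.061% at DEP2, 0.0682% at DEP5, 0.0825% at DEP7, 0.061% at DEP10, 0.0754% at DEP14 and 0.14% at DEP21. During repopulation it was 0.0574% at REPOP3, 0.0825% at REPOP5, 0.0861% at REPOP7, 0.0502% at REPOP10, 0% at REPOP14, 0.00718% at REPOP21 and 0% at REPOP60. The largest departures by unadjusted p-value among the 65 member tests were at REPOP21, where the log2 fold change was 0.33 ± 0.14 for Pros1 (FDR = 0.323) and -0.32 ± 0.14 for Mertk (FDR = 0.344). At that time Pros1 measured 12.1, 9.15, 11.5 and 12.97 CPM and Mertk 10.3, 8.15, 7.65 and 8.48 CPM. Only 1 of these Pros1 values and 1 of these Mertk values lay within the CD range. At REPOP21 12.4% of all genes had an unadjusted p-value below 0.05 in the edgeR test, the highest percentage of the 13 comparisons. REPOP21 1, the first mouse in each list, had the fewest counted reads of the series (5106429), with 63 for Pros1 and 54 for Mertk.

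Late repopulation (the mean of REPOP14, REPOP21 and REPOP60, n = 12) was then set against sustained depletion, a contrast that does not use the CD mice. Of the microglial marker genes 19 of 20 were higher, yet none of the 5 members was called, against 0.276% of all genes. Tyro3 came closest, at 20.2 to 27.8 CPM in late repopulation (median 22.8) and 19.8 to 30.9 CPM in sustained depletion (median 25.1). Its log2 fold change was -0.17 ± 0.05 (FDR = 0.326; interval -17.4% to -3.86%), opposite in sign to the microglial marker genes, and the ranges overlapped. The changes of Axl (0.00), Mertk (-0.05), Gas6 (0.02) and Pros1 (-0.05) were smaller.

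Over the 14 groups without LPS, mean CPM ran from 13.6 (REPOP10) to 18.9 (REPOP60) for Axl, from 8.65 to 11.1 for Mertk, from 21.7 to 27.2 for Tyro3, from 193 to 224 for Gas6 and from 7.21 (REPOP60) to 11.4 (REPOP21) for Pros1. The extremes at REPOP60 came from a group made up of re mice alone. Across the 58 mice without LPS the suffix moved 4 of the 5 members, where 46.4% of all genes were called: re libraries were higher for Axl (log2 fold change 0.43), Tyro3 (0.23) and Gas6 (0.17) and lower for Pros1 (-0.30), whereas Mertk (-0.14, FDR = 0.0788) was not called. Axl averaged 18.3 ± 1.55 CPM in re mice (n = 19) and 13.5 ± 2.30 CPM in RE mice (n = 39), a larger log2 difference than Axl showed between CD and any of the 13 depletion or repopulation groups.

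With resident microglia, Axl and Pros1 were the members called higher in LPSCD than in CD, where 1.17% of 25712 genes were called and 0.72% were called higher. Because all LPSCD mice were re, the suffix term leaves the contrast to rest on the CD mice 1 and 2M, the pair with that suffix. Titles also carry a number of unstated meaning, which began with 1 for LPSCD 1 and LPSREPOP 2 and 3, with 2 for CD 1 and with 0 for the other mice of LPSCD, LPSREPOP and re CD. No member met the stricter rule the study used, FDR below 0.01 with a log2 change above 1, which 0.109% of genes met.

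Axl measured 27.7, 30.4 and 47.0 CPM in LPSCD mice 1, 2 and 3. All of them exceeded the 5 CD mice, whose highest was 19.4 CPM, and the 19 re mice without LPS, whose highest was 20.8 CPM. The log2 fold change was 0.94 ± 0.19 (FDR = 0.0150), an increase of 46.2% to 153% by the 95% interval. The call was nonetheless sensitive to single mice, as the adjusted p-value rose to 0.255 without CD 1 (log2 fold change 0.85), to 0.165 without CD 2M (1.04) and to 0.0917 without LPSCD 3 (0.67). With only LPSCD and CD in the model the fold change stayed at 0.95 with FDR = 0.163, and with REPOP60 as reference it was 0.89 with FDR = 0.00105. With the leading digit of the title number as a further term, which leaves CD 2M as the reference, it was 0.85 with FDR = 0.463.

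Tyro3 measured 22.7, 38.1 and 47.5 CPM in the same LPSCD mice. Mouse 1 lay inside the CD range of 21.1 to 28.2 CPM, and mice 2 and 3 lay above it. The log2 fold change was 0.41 ± 0.20 (FDR = 0.353), and it was called when mouse 1 was left out (0.66, FDR = 0.00835) and fell to 0.16 when mouse 3 was. Models without the suffix term (0.54, FDR = 0.0309), with all 65 mice (0.41, FDR = 0.0402) or with REPOP60 as reference (0.56, FDR = 0.0409) also called it. Mertk measured 11.7, 11.5 and 12.9 CPM, all below the highest CD mouse, with a log2 fold change of 0.10 ± 0.18 (FDR = 0.879; interval -17.5% to 38.7%).

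Among the ligands, Pros1 measured 9.51, 19.8 and 38.0 CPM in LPSCD mice 1, 2 and 3, which is 73, 155 and 303 reads. Mouse 1 was inside the CD range of 7.001 to 10.02 CPM while mouse 3 was well beyond every other mouse of the series. The log2 fold change was 1.32 ± 0.32 (FDR = 0.0380; an increase of 58.1% to 294%). The size of the Pros1 change rested on mouse 3, for without it the log2 fold change was 0.70 (FDR = 0.300). The call was also lost without CD 1 (FDR = 0.298), CD 2M (FDR = 0.326), CD 3 (FDR = 0.0520) or LPSCD 2 (FDR = 0.0816), under DESeq2 (1.32, adjusted p = 0.0775), with a stricter count filter (1.32, FDR = 0.0743) with only LPSCD and CD in the model (1.32, FDR = 0.289) and with the leading digit as a further term (1.39, FDR = 0.499). Gas6 measured 231, 248 and 241 CPM, all above the highest CD mouse at 218 CPM, and its log2 fold change was 0.14 ± 0.08 (FDR = 0.465). Of these 3 mice 2 exceeded the highest re mouse without LPS, at 238 CPM. A model without the suffix term called Gas6 (0.23, FDR = 0.0407).

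**Figure D3:**
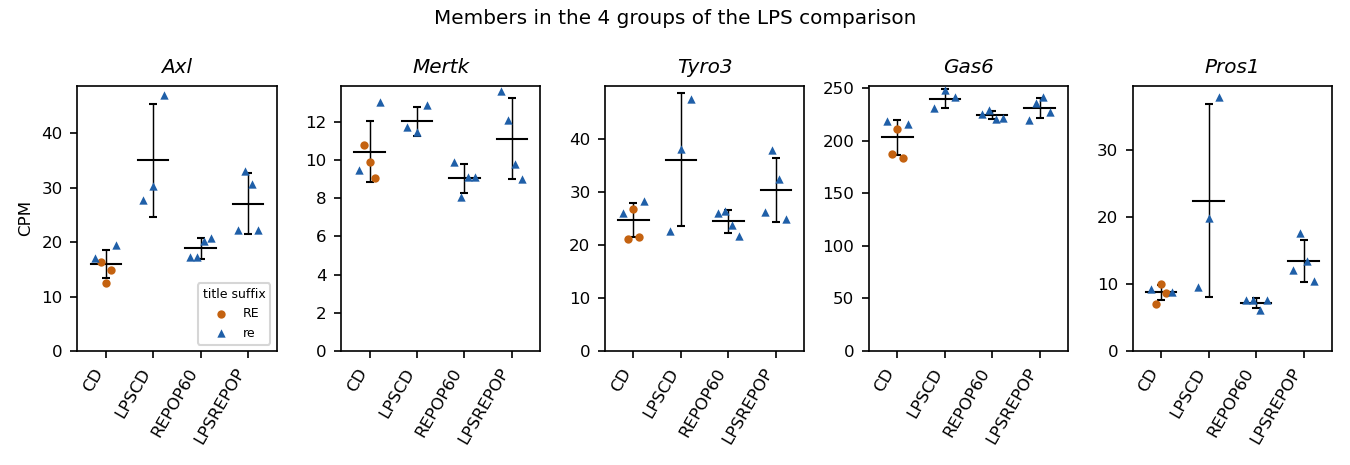
TMM-scaled CPM of each member (vertical axes, from 0) in each mouse of CD, LPSCD, REPOP60 and LPSREPOP, with group means and SD as bars and whiskers; orange circles are RE mice and blue triangles re mice. All 7 LPS mice stand above all CD and REPOP60 mice for Axl, whereas Pros1 and Tyro3 each have an LPSCD mouse among the CD values.

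**Figure D4:**
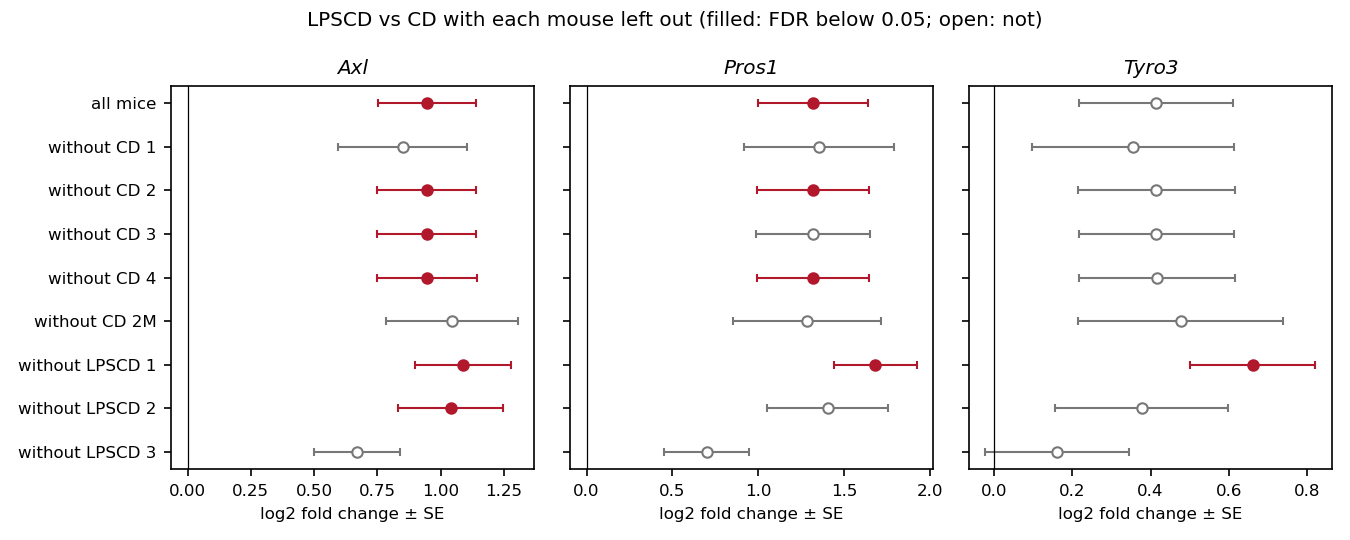
Log2 fold change ± SE (horizontal axis) of Axl, Pros1 and Tyro3 in LPSCD against CD with all mice and with each mouse of these groups left out in turn (vertical axis); filled points have FDR below 0.05. Leaving out LPSCD 3 lowers all 3 genes, to 0.67, 0.70 and 0.16, and leaving out LPSCD 1 raises Tyro3 to 0.66.

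The same comparison moved other cell types' markers, and their part in these results was not tested. Of all genes 0.72% were called higher in it and 0.455% lower. The sum of 20 microglial markers was 73.1 to 95.1 CPM in CD and 142 to 161 CPM in LPSCD, with 5 of 20 called higher. Among 10 endothelial markers 4 were called higher, including Cdh5, Cldn5 and Pecam1, genes of vascular junctions, and their sum was 383 to 424 CPM in CD and 397 to 461 CPM in LPSCD. Of 10 Müller glia markers 2 were called higher and 1 lower, with sums of 4036 to 4287 and 4177 to 4547 CPM. Of 10 inner neuron markers 1 was called lower, and their sum was lower without overlap, at 2136 to 2259 CPM in CD and 1870 to 2078 CPM in LPSCD. No RPE marker of 10 was called, although their sum was 34.6 CPM in LPSCD 3, the mouse highest in Axl, Tyro3 and Pros1, against 13.4 and 13.8 CPM in the other LPSCD mice and 8.04 to 26.1 CPM in CD. The sum of 6 monocyte and neutrophil markers was 1.13 to 2.995 CPM in LPSCD. It was 4.24 CPM in CD 3, an RE mouse, and at most 0.593 CPM in every other CD mouse. In the re mice of CD it was at most 0.133 CPM, below all LPSCD mice. LPSCD 1, the mouse lowest in Axl, Tyro3 and Pros1, had the highest endothelial sum and the lowest microglial, astrocyte and RPE sums of its group. Over LPSCD 1, 2 and 3 the microglial sums rose (142, 152 and 161 CPM), as the 3 genes did. So did the astrocyte (398, 420 and 453 CPM) and RPE sums (13.4, 13.8 and 34.6 CPM). The endothelial sums fell (461, 447 and 397 CPM), and so did the Müller glia sums (4547, 4509 and 4177 CPM). Rod sums and monocyte and neutrophil sums fell too. An order over 3 mice cannot tell these lists apart.

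In repopulated retina the direction was shared and the test was not passed. Axl measured 22.2, 33.1, 30.7 and 22.3 CPM in LPSREPOP mice 1 to 4 and 17.3, 17.2, 20.2 and 20.8 CPM in REPOP60. All 4 LPSREPOP mice were above all 4 REPOP60 mice, and the log2 fold change was 0.52 ± 0.15 (FDR = 0.0914). It was called without LPSREPOP 4 (0.60, FDR = 0.0355), with only those groups in the model (0.52, FDR = 0.0116) and with no count filter (0.52, FDR = 0.000541). Pros1 measured 12.02, 17.7, 13.5 and 10.4 CPM against 7.54, 7.55, 6.11 and 7.64 CPM, again without overlap. Its log2 fold change was 0.89 ± 0.26 (FDR = 0.105), and models of these groups alone (FDR = 0.00072), of all 65 mice (FDR = 0.00746) or with no count filter (FDR = 1.1e-06) called it at the same 0.89. None of the 5 members was called by the model as fixed, against 1.18% of all genes. Tyro3 (26.3, 37.9, 32.4 and 24.9 CPM; log2 fold change 0.31 ± 0.16), Mertk (13.6, 12.1, 9.77 and 9.02 CPM; 0.29 ± 0.15) and Gas6 (219, 235, 242 and 227 CPM; 0.04 ± 0.06) overlapped their REPOP60 ranges. As in LPSCD, microglial (7 of 20) and endothelial (6 of 10) markers were called higher in LPSREPOP, and 2 of 10 Müller glia and 1 of 8 mural cell markers were too. Sums were higher without overlap for microglia (85.2 to 135 against 65.4 to 73.7 CPM in REPOP60) and endothelium (430 to 453 against 376 to 409 CPM). The same held for Müller glia (4512 to 4663 against 4079 to 4188 CPM) and mural cells (121 to 133 against 77.9 to 99.6 CPM). Sums were lower without overlap for inner neurons (1978 to 2128 against 2187 to 2275 CPM, with 0 of 10 markers called). Rod photoreceptor sums were also lower without overlap (48077 to 58787 against 59204 to 60574 CPM). RPE marker sums overlapped, at 16.1 to 40.6 CPM in LPSREPOP and 13.5 to 41.0 CPM in REPOP60. LPSREPOP 2, the mouse highest in Axl, Pros1 and Tyro3, had an RPE sum of 17.3 CPM. Its microglial sum was 114 CPM, against 125, 135 and 85.2 CPM in LPSREPOP 1, 3 and 4. Its astrocyte sum was 460 CPM, against 438, 426 and 395 CPM. The neutrophil genes S100a8 and S100a9 were also called higher, and the sum of the 6 monocyte and neutrophil markers was 0.773 to 9.01 CPM in LPSREPOP against at most 0.529 CPM in REPOP60. The part of these cell types in the Axl and Pros1 values was not tested.

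Between the LPS groups, LPSREPOP was lower than LPSCD by a log2 fold change of -0.37 ± 0.15 for Axl (FDR = 0.304) and -0.75 ± 0.25 for Pros1 (FDR = 0.194). No member was called, against 0.0428% of genes. The ranges overlapped for both, and the sizes depended on LPSCD 1 and LPSCD 3. Without LPSCD 1 Axl (-0.51), Tyro3 (-0.49) and Pros1 (-1.11) were all called, and without LPSCD 3 the differences were -0.10 for Axl, 0.0048 for Tyro3 and -0.13 for Pros1, none of them called. With no count filter Axl (-0.38, FDR = 0.0447) and Pros1 (-0.75, FDR = 3.58e-05) were called, and with all 65 mice Pros1 was (-0.75, FDR = 0.0327). The difference between the 2 LPS changes was itself tested, and was -0.42 ± 0.24 for Axl (FDR = 0.804) and -0.43 ± 0.42 for Pros1 (FDR = 0.892). No gene was called in that test by the main edgeR model (0%) or by DESeq2, and 1519 genes had an unadjusted edgeR p-value below 0.05. Genes were called by edgeR with no count filter and without LPSCD 1.

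Because Axl and Pros1 were the members called together, the 250 bases before their RefSeq transcription starts are shown (GRCm38.p6, written along the gene's strand). Capitals mark matches, on either strand, to the GC box letters GGGCGG, to the AP-1 letters TGANTCA and to the STAT letters TTCNNNGAA. The Axl window is chr7:25788734-25788983 (minus strand) and the Pros1 window is chr16:62854057-62854306 (plus strand).
Axl: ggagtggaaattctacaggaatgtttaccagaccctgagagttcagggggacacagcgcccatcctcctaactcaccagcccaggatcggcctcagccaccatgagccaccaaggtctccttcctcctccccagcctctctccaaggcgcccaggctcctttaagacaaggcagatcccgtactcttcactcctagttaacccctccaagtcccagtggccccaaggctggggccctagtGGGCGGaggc
Pros1: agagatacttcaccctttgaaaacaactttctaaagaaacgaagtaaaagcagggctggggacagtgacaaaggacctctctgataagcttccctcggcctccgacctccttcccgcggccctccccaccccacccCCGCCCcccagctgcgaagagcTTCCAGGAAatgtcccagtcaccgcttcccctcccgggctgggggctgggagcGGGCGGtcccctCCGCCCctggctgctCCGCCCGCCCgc
The GC box matched 1 time before Axl and 5 times before Pros1, where the last pair of matches overlaps, and it occurred before 32.7% of 32851 RefSeq starts. The STAT letters matched 1 time before Pros1 and not in the Axl window, and occurred before 7.02% of starts. The AP-1 letters, found before 6.75% of starts, matched in neither window. These matches describe the letters only.

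Of 34 further genes of the pathway, 33 were tested, and none was called in sustained depletion against CD. Their median log2 fold change was 0.00 against -0.01 over all genes. They comprised the alternative TAM ligands, the vitamin K cycle, receptor shedding, interferon and SOCS feedback, other phosphatidylserine receptors, engulfment and phosphatidylserine exposure. Under LPS with resident microglia 2 of 33 were called, both higher, where 1.17% of all genes were called and 0.72% called higher, and 23 of 33 had a log2 fold change above 0, with a median of 0.11 against 0.00 over all genes. Socs3, a cytokine-induced inhibitor of JAK and STAT signalling, averaged 3.11 ± 0.771 CPM in CD and 13.2 ± 9.83 CPM in LPSCD, a log2 fold change of 2.36 ± 0.45 (FDR = 0.00975). Its LPSCD mice spanned 5.21 to 24.2 CPM and all exceeded the highest CD mouse at 4.11 CPM. Without LPSCD 3 the Socs3 change was 1.58 (FDR = 0.04999), and the call was lost without CD 1 (FDR = 0.226) or CD 2M (FDR = 0.116), with only LPSCD and CD in the model (FDR = 0.169) and with the leading digit of the title number as a further term (FDR = 0.459). Stab1, a scavenger receptor for phosphatidylserine, averaged 4.98 ± 0.710 and 10.3 ± 1.45 CPM (log2 fold change 1.04 ± 0.25, FDR = 0.0338), and its ranges, 4.03 to 5.99 and 9.12 to 11.9 CPM, did not overlap. The Stab1 call was lost without CD 1 (FDR = 0.260), CD 2M (FDR = 0.310), LPSCD 2 (FDR = 0.0817) or LPSCD 3 (FDR = 0.148), with a stricter count filter (FDR = 0.0544), with only those groups in the model (FDR = 0.163) and with the leading digit (FDR = 0.456). In LPSREPOP against REPOP60 Stab1 was again called (0.96 ± 0.18, FDR = 0.00419) and remained so with any mouse of those groups left out (0.85 to 1.10), whereas Socs3 was not (0.89 ± 0.34, FDR = 0.277) except with only those groups in the model (FDR = 0.0253) or with no count filter (FDR = 0.000725). Without LPSREPOP 2 the Socs3 change was 0.56. Of all genes 1.18% were called in LPSREPOP against REPOP60. Set directly against LPSCD, LPSREPOP had a Socs3 log2 fold change of -0.90 ± 0.31 (FDR = 0.208). It was called with no count filter (FDR = 9.92e-05), with all 65 mice (FDR = 0.0475) and without LPSCD 1 (FDR = 0.0024), and was -0.12 without LPSCD 3. The difference between the 2 LPS changes of Socs3 was -1.47 ± 0.58 (FDR = 0.804).

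The composition of the family per transcript length was also compared. In CD, Axl made up 39.7 ± 5.33%, Mertk 13.8 ± 3.09% and Tyro3 46.5 ± 3.99% of the summed receptor FPKM (n = 5), and Gas6 made up 96.5 ± 0.554% of the summed ligand FPKM. In sustained depletion the shares were 35.0 ± 5.65%, 13.2 ± 2.27%, 51.7 ± 5.59% and 95.9 ± 0.815% (n = 19). In LPSCD they were 47.2 ± 3.64%, 10.8 ± 2.38%, 42.0 ± 2.63% and 93.1 ± 4.04% (n = 3). Of the 8 differences the higher Axl share in LPSCD than in CD, by 7.47 percentage points, had the smallest two-sided exact permutation p-value, 0.0357, and after Benjamini-Hochberg adjustment over the 8 tests it was 0.217. That p-value takes no account of the suffix, and within re mice the difference was 5.74 points. No share passed the adjusted threshold, also when counts per exon length replaced FPKM. With 3 against 5 mice 0.0357 is the smallest p-value that this test can give, and if all 4 LPS shares had reached it their adjusted value would be 0.0714 unless depletion shares had smaller p-values. In LPSREPOP the Axl share was 39.4 ± 2.27% (n = 4) against 38.3 ± 7.63% in REPOP60 (n = 4), a difference that was not tested.

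The genes most like each member in pattern were taken over the 65 mice. After the suffix effect was removed from log2(CPM + 1), the genes of 5 CPM or more most correlated with Axl were Ap1b1 (Pearson r = 0.84), Eef2 (0.84) and Pxn (0.81), and in the 58 mice without LPS these values were 0.69, 0.57 and 0.62. For Pros1 they were Sesn1, Zranb1 and Cp, each at 0.84, and at 0.37, 0.43 and 0.57 without the LPS mice. Mertk was most like Fam107a (0.61), Folh1 (0.59) and Lrrc1 (0.57), Tyro3 most like Prss57 (0.71), Rsrp1 (0.70) and Ipo9 (0.69), and Gas6 most like Snrpb (0.73), Git1 (0.70) and Guca1a (0.69). Among the members themselves the highest correlation over 65 mice was between Tyro3 and Pros1 (0.61), and it was 0.12 without the LPS mice. Between Axl and Pros1 it was 0.49 over 65 mice, -0.47 over the 58 mice without LPS and -0.40 among these after group means were removed. These coefficients are descriptions over libraries that share the LPS groups and differ in depth.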

How the data were processed

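Reads were aligned by the authors to the mouse genome (mm10) with HISAT2 and counted per gene with HTSeq (per the submitters' processing notes), and the deposited counts are raw. StringTie gave the deposited FPKM values, which are scaled to transcript length and library size. Annotation release, tool versions and strand setting are not given in the sources used here. Each library came from 1 mouse, and depth was 5106429 to 8760443 counts per library.

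From the counts, edgeR 4.0.16 (R 4.3.3) quasi-likelihood models with TMM scaling were fitted over every gene whose count reached 1 in a share of 0.5 or more of some group's mice. The time course model held the 58 mice of 14 groups without LPS and 27869 genes. The LPS model held the 16 mice of CD, REPOP60, LPSCD and LPSREPOP and 25712 genes. Both had title suffix and group as terms, because the study states an additive batch term without naming batches and the suffix was the main separation between libraries. The leading digit of the number in re titles was added as a further term in an alternative chosen after seeing the data. FDR is Benjamini-Hochberg over all genes tested, and intervals are 95%. For FPKM shares the test was an exact permutation of mice, two-sided. DESeq2 1.42.0 was an alternative. The models were tested on simulated data with the same dispersion for every gene and no suffix effect. How they perform under the suffix difference was therefore not tested. Where a mouse was left out, the gene set and trended dispersion of the full model were kept. Counting error at a count of 0 is given as 3 counts and ignores other noise.

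The members and gene lists were chosen with earlier results of these data known. Pathway genes were named at FDR below 0.05 in sustained depletion or LPSCD against CD (at most 10 each), marker genes as the first 3 of their list, and similar genes as the 3 of highest r with mean CPM of at least 5. Promoter windows are RefSeq GRCm38.p6 (5 of 5 members matched), and positions are GENCODE on GRCm38. Symbols were matched for 50462 of 50686 identifiers.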

Additional observations from a re-analysis of the deposited data

Results flagged for a closer look

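In sets of 4 to 10 mice of a group, Dixon's criterion at the 95% level was applied to each member's CPM and receptor or ligand share. It marked 7 of 126 sets, and chance marks about 1 in 20. Axl in REPOP10 replicate 1, the only re mouse of its group, was 17.7 CPM against 11.7 to 12.6 CPM in the others. Mertk was 13.9 CPM in DEP21 replicate 4 against 9.20 to 9.87 CPM, 7.93 CPM in REPOP7 replicate 1 against 10.6 to 12.1 CPM, and 13.1 CPM in REPOP10 replicate 2 against 9.51 to 10.04 CPM. Pros1 in REPOP60 replicate 3 was 6.11 CPM against 7.54 to 7.64 CPM. The Mertk share of receptor FPKM was 12.03% in REPOP21 replicate 2, where the others were all 10.8%, and the Tyro3 share was 41.7% in DEP21 replicate 3 against 48.4% to 49.4%. LPSCD, with 3 mice, was not examined by this criterion.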

How the results depend on the processing

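Over 768 alternative values of 30 log2 fold changes (5 members in 6 contrasts), 736 stayed on the same side of the FDR threshold of 0.05, 14 lost a call and 18 gained one, and no called value changed sign. The main models called only Axl and Pros1 in LPSCD against CD, so all 14 lost calls were of these. Most of the values that stayed were uncalled throughout. No member gained a call in sustained depletion against CD or in late repopulation against sustained depletion. In LPSCD against CD, Pros1 (main 1.32) lost its call under DESeq2 (1.32), with filterByExpr (1.32) and with only the groups of the contrast (1.32), as Axl did with the last (0.95). Tyro3 was called with group only (0.54), with the replicate block in place of the suffix (0.50), with all 65 mice (0.41) and with REPOP60 in place of CD (0.56), and Gas6 with group only (0.23). In LPSREPOP against REPOP60, Axl was called with no gene filter (0.52) and with only those groups (0.52), and Pros1 with no gene filter (0.89), all 65 mice (0.89) and only those groups (0.89). In LPSREPOP against LPSCD, Axl (-0.38) and Pros1 (-0.75) were called with no gene filter, and Pros1 with all 65 mice (-0.75). The cause was not tested.

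With each mouse left out in turn, values ranged in LPSCD against CD from 0.67 to 1.09 for Axl, 0.70 to 1.68 for Pros1 and 0.16 to 0.66 for Tyro3, in LPSREPOP against LPSCD from -0.51 to -0.10 for Axl, -1.11 to -0.13 for Pros1 and -0.49 to 0.0048 for Tyro3, and in LPSREPOP against REPOP60 from 0.41 to 0.61 for Axl.

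After the suffix term, 10 of 23 same-numbered depletion pairs with CD had r above 0.1 (-0.446 to 0.579) and 0 of 3 LPSCD pairs did. Pairs with different numbers were not compared, so these values cannot show whether same-numbered mice deviated together. The replicate block changed no member's call but that of Tyro3. The counts of all genes moved more. In LPSCD against CD, 185 genes were higher and 117 lower, against 1599 and 1666 with group only, 1724 and 2004 with the replicate block, 94 and 52 with filterByExpr, 678 and 536 with no filter, 1013 and 800 with all 65 mice, 804 and 639 with REPOP60 as reference, and 10 and 1 with only those groups. Elsewhere the alternatives, left-out mice included, spanned 0 to 24 higher (main 1) and 0 to 96 lower (55) in sustained depletion, 31 to 201 (67) and 3 to 266 (10) in late repopulation, 83 to 523 (227) and 29 to 262 (76) in LPSREPOP against REPOP60, 0 to 1092 (3) and 0 to 983 (8) in LPSREPOP against LPSCD, and 0 to 319 (0) and 0 to 174 (0) in the difference of LPS changes, the upper ends of the last pair of contrasts being without LPSCD 1. The alternatives with re mice alone for depletion and with re CD mice alone as the LPS reference were chosen after seeing the data and changed no member's call. The leading digit of the title number as a further term was also chosen after seeing the data. It ended the LPSCD calls of Axl (0.85) and Pros1 (1.39), turned the uncalled Mertk value to -0.10, called no member elsewhere and left 0 genes called by edgeR in LPSCD against CD (2294 at an unadjusted p below 0.05). Counts of 44 to 106 for Pros1 and 54 to 116 for Mertk in mice without LPS limit the precision of these genes.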
